A study of Mus musculus with 13 samples.

Results

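Ostn, Mstn, Fst, Fstl1, Fndc5, Il15, Metrnl and Apln encode factors that skeletal muscle secretes, or that circulate and act on it. These 8 genes, of the 21868 in the table of normalized counts, were followed across 3 treatment groups in mouse gastrocnemius. They were picked by name with their levels in these same mice already known, so their values are given as a description. No p-value is given for a single gene of the 8, and counts of those past a threshold support nothing, since the choice of genes used the same comparisons. All 8 were in the table and 7 had a mean of at least 10 normalized counts over the 13 mice, which was the requirement for entering the fits across genes. Apln was below it.

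The mice were males that entered the study at 7 weeks of age, of a strain labelled C57BL/6 and given as C57BL/6N where the study describes its RNA-seq values. After 1 week of acclimatization they ate a diet with 60 kcal% fat for 15 to 17 weeks and were then all moved to standard chow. For the following 3 weeks they received phosphate-buffered saline as vehicle plus placebo (5 mice, numbered 1 to 5), semaglutide, a GLP-1 receptor agonist, intraperitoneally at 30 nM/kg/day plus placebo (5 mice, 13 to 17), or that dose together with a ketone ester, dissolved at 0.114 g/mL in what they drank (3 mice, 19, 21 and 22). All groups therefore shared the high-fat feeding and the change to chow, and no group received the ketone ester without semaglutide. Each library was made from the gastrocnemius of a single mouse.

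Muscle fibres release peptides and proteins that act on the fibres themselves, on other cells of the muscle and on distant organs. Myostatin, the product of Mstn, restrains muscle growth by signalling through activin type II receptors to SMAD proteins, and follistatin (Fst) binds and neutralizes myostatin and activins. Musclin (Ostn) resembles the natriuretic peptides and binds their clearance receptor, irisin is shed from the membrane protein encoded by Fndc5, and interleukin-15, meteorin-like protein and apelin have each been linked to exercise and muscle mass.

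The libraries held 15319471 to 23498162 reads assigned to genes. Semaglutide-treated mouse 13 stood apart from its group: the chi-square per degree of freedom between its read counts and those of the other 4 semaglutide-treated mice was 90.4 to 153.1, against 13.0 to 42.2 among those 4. Mouse 16 of the same group stood apart in markers of other cell types, given with Fst. No 2 libraries of a group agreed within sampling noise, the lowest value being 9.27. Summed over 9 markers of skeletal muscle fibres, normalized counts were 3028198 to 3646962 with vehicle, 2043132 to 3471773 with semaglutide and 3846227 to 4523030 with semaglutide + ketone ester, so that each combination-treated mouse was above all others. Of these 9, limma called 1 lower with semaglutide than with vehicle, where 13.9% of all genes fitted were called lower. It called 4 higher with the combination than with semaglutide, where 10% of all genes were called higher. The median log2 differences of the 9 were -0.46 and 0.75. In the same comparisons edgeR called 1 and 5 of the 9, and DESeq2 called 4 and 6. The part of these markers in the results below was not tested. Summed over 7 fibroblast markers (Pdgfra, Col1a1, Col1a2, Col3a1, Dpt, Lum and Mfap5), normalized counts were 3210 to 8135 with vehicle, 874 to 2659 with semaglutide and 4676 to 8645 with semaglutide + ketone ester. In whole muscle, fewer cells of a type and less RNA per cell cannot be told apart.

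Ostn, Fndc5, Fstl1, Il15 and Fst had lower transcript levels with semaglutide than with vehicle, whereas Mstn and Metrnl were at about the same level in all 3 groups. Ostn had the widest difference of the 8, with a mean in semaglutide-treated mice of 13.8% of the vehicle mean. In semaglutide + ketone ester–treated mice all 7 measurable genes had values that overlapped those of the vehicle group. The values of the single mice are drawn in the plot of normalized counts by group.

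**Figure D1:**
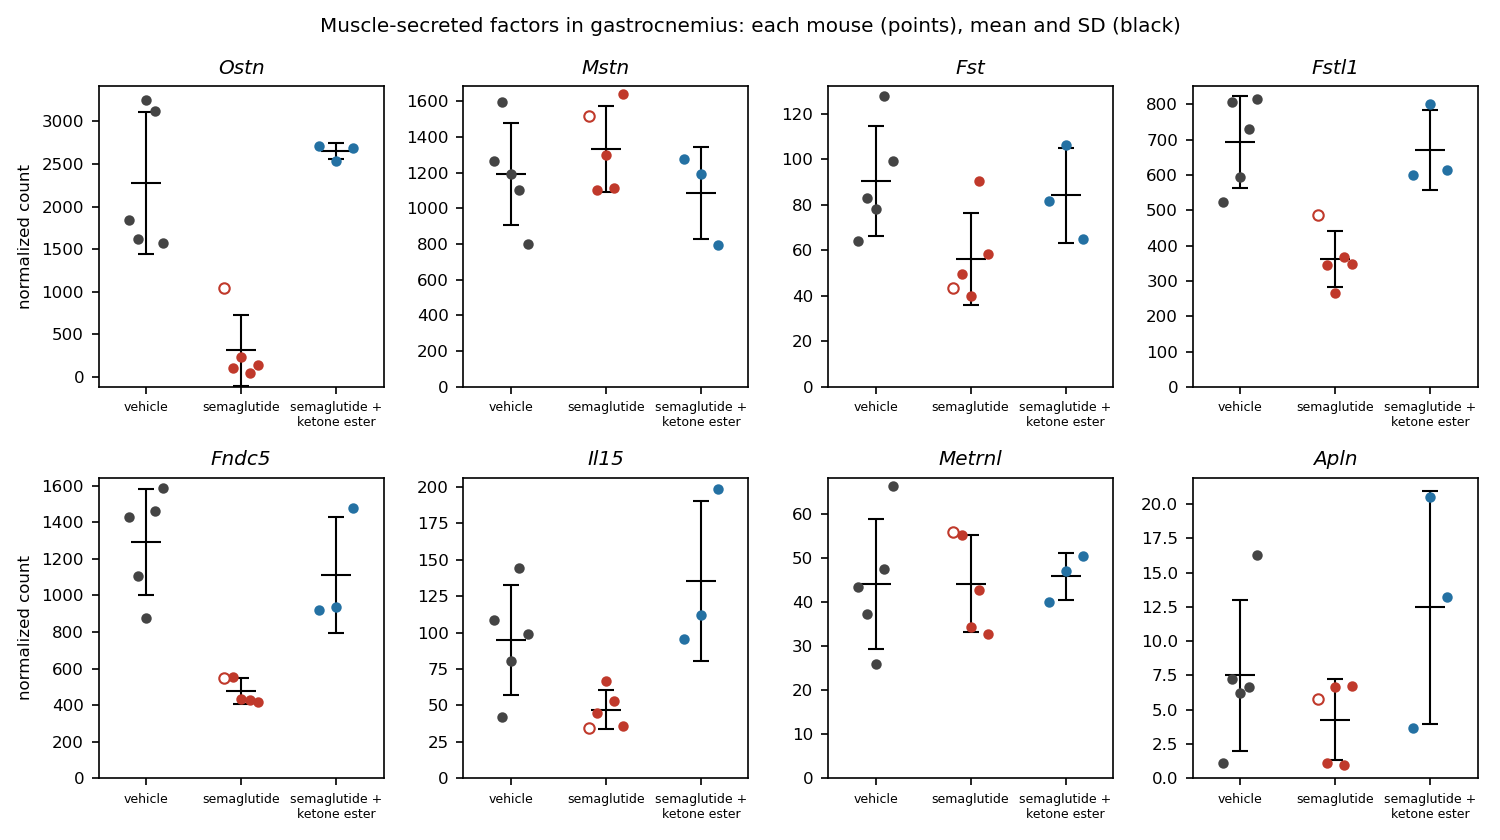
Normalized counts (vertical axes, a separate linear scale for each gene) of the 8 genes in vehicle (black), semaglutide (red) and semaglutide + ketone ester (blue) mice, with 1 point per mouse, the mean as a long bar and the SD as whiskers (n = 5, 5 and 3). The open red point is semaglutide-treated mouse 13, whose 1047 normalized counts of Ostn lay above the 50.5 to 229.9 of the rest of its group.

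Ostn (ENSMUSG00000052276) lies on the plus strand at chr16:27307489-27351212 of GRCm38 and encodes musclin. Its normalized counts in vehicle-treated mice 1 to 5 were 1838, 1619, 3248, 3121 and 1568. In semaglutide-treated mice 13 to 17 they were 1047, 109, 229.9, 50.5 and 137. In semaglutide + ketone ester–treated mice 19, 21 and 22 they were 2713, 2540.3 and 2691. Every semaglutide-treated mouse was below every mouse of both other groups, and the 3 combination-treated mice lay within the range of the vehicle group. The group means were 2279 ± 834 (SD, n = 5) with vehicle, 315 ± 415 (SD, n = 5) with semaglutide and 2648 ± 94.1 (SD, n = 3) with the combination. On the scale of log2(normalized count + 1), semaglutide against vehicle differed by -3.59 (SE 0.57), the 9th lowest difference of the 12303 genes fitted, and the combination against semaglutide by 3.88 (SE 0.66), the 9th highest. The combination differed from vehicle by 0.29 (SE 0.66), less than its standard error. In order of level the combination came first, vehicle second and semaglutide last, and the first and second did not differ beyond their spread.

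The semaglutide mean of Ostn depended on mouse 13, which carried 7.96 times the mean of the other 4. Those 4 averaged 132 ± 74.8 (SD, n = 4), so that the vehicle mean was 17.3 times theirs, compared with 7.24 times the mean of all 5 semaglutide-treated mice. Mouse 13 alone stood at 46.0% of the vehicle mean. Without it the log2 difference of semaglutide against vehicle was -4.22. Red blood cell markers (Hba-a1, Hba-a2, Hbb-bs, Hbb-bt and Alas2) also varied within this group, with summed normalized counts of 3148 in mouse 13, 53.0 in mouse 14, 1505 in mouse 15, 50.5 in mouse 16 and 213 in mouse 17. They were 1356 to 2291 with vehicle and 2849 to 5558 with the combination. Limma called 5 of 5 higher with the combination than with semaglutide, where 10% of all genes were called higher. In that comparison edgeR called 1 of 5 and DESeq2 0 of 5. The summed fibroblast and muscle fibre markers were likewise highest in mouse 13 within its group, at 2659 and 3471773. The part of any of them in the Ostn values was not tested.

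The annotation places an antisense gene, Gm32312, and a pseudogene, Gm15970, on the strand opposite to Ostn within its span, and neither was in the table. The library kit keeps strand, but how strand was set in the counting is not given in the sources used here.

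Per kilobase of exon, Ostn was the most abundant of the 8 genes in vehicle-treated mice, at 1601 ± 586 normalized counts per kilobase (SD, n = 5). Fndc5 followed with 468 ± 105 and Mstn with 441 ± 106, and these 2 did not differ beyond their spread. Fstl1 stood at 141 ± 26.5, Il15 at 42.0 ± 16.6, Metrnl at 27.8 ± 9.37, Fst at 19.7 ± 5.28 and Apln at 2.38 ± 1.74. In semaglutide-treated mice Mstn was first, at 494 ± 89.0 normalized counts per kilobase, and Ostn, at 221 ± 291, and Fndc5, at 172 ± 25.0, followed. The order of the last 2 rested on mouse 13, without which Ostn was at 92.5 ± 52.5 and Fndc5 at 166 ± 23.6 (SD, n = 4). In the combination group Ostn was again first, at 1861 ± 66.1.

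Fndc5 (ENSMUSG00000001334), at chr4:129136999-129144593 on the plus strand of GRCm38, encodes the precursor of irisin. Vehicle-treated mice 1 to 5 had 1427, 1109, 877, 1464 and 1586 normalized counts. Semaglutide-treated mice 13 to 17 had 548, 556, 435, 427 and 416. Combination-treated mice 19, 21 and 22 had 922, 935 and 1476. The highest semaglutide-treated mouse was below the lowest mouse of either other group, and mouse 13 was not set apart here. Means were 1292 ± 291, 477 ± 69.2 and 1111 ± 316 (SD, n = 5, 5 and 3), and the log2 differences were -1.42 (SE 0.17) for semaglutide against vehicle, 1.20 (SE 0.20) for the combination against semaglutide and -0.22 (SE 0.20) for the combination against vehicle.

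Mstn (ENSMUSG00000026100), at chr1:53061640-53068079 on the plus strand of GRCm38, had 1268, 1594, 1195, 1105 and 799.9 normalized counts in the vehicle-treated mice, in order of mouse number. Semaglutide-treated mice had 1516, 1104, 1301, 1112 and 1643, and combination-treated mice 1275, 1191 and 793. The 3 groups overlapped throughout, with means of 1192 ± 287, 1335 ± 241 and 1086 ± 258 (SD, n = 5, 5 and 3). The log2 differences were 0.18 (SE 0.18) for semaglutide against vehicle, -0.31 (SE 0.21) for the combination against semaglutide and -0.13 (SE 0.21) for the combination against vehicle. With all libraries set to equal totals, a scaling that moved the median of all genes by -0.24 between the combination and semaglutide, Mstn was -0.55 in that comparison and past the threshold of 0.05 on limma's adjusted p. In the other 22 alternative fits it was not.

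Mstn and Fndc5 had similar levels per kilobase in vehicle-treated mice, but the semaglutide and vehicle groups overlapped for Mstn and did not overlap for Fndc5. The 250 bases before the start sites of these 2 genes are therefore shown side by side. They are from RefSeq on GRCm38.p6, 5′ to 3′ on the plus strand, at chr1:53061390-53061639 for Mstn and chr4:129136749-129136998 for Fndc5. Capitals mark matches, on either strand, to any of 5 motifs searched: the E-box CANNTG, bound by MyoD and related factors, the FoxO element GTAAACA, the core TGACG of the cyclic AMP response element, the core AGGTCA of nuclear receptor sites and the TATA box TATAAA.
Mstn: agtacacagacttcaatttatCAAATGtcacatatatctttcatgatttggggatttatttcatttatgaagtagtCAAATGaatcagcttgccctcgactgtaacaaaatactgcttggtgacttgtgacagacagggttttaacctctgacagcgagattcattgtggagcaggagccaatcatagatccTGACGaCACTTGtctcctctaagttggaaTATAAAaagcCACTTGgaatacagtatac
Fndc5: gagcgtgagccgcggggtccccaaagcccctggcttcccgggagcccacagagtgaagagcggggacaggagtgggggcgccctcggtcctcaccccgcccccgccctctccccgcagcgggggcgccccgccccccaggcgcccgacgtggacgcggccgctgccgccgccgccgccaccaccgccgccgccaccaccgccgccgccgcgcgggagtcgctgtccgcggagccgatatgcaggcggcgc
The Mstn window held 4 E-boxes, first bases at positions -229, -174, -52 and -19 counted back from the start site, with a TGACG at -58 and a TATAAA at -29. The Fndc5 window, rich in G and C, held none of the 5. No 2 matches overlapped. Of 32815 RefSeq promoters of the same length, 66.2% held an E-box, 3.16% the FoxO element, 17.8% TGACG, 14% AGGTCA and 12.4% TATAAA. A match is a run of letters only and was not related to the values. RefSeq promoters were found for 5 of the 8 genes.

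Fst (ENSMUSG00000021765), at chr13:114452290-114458951 on the minus strand, encodes follistatin, the binding protein that neutralizes myostatin and activins. Its normalized counts were low, at 64.1, 83.1, 78.0, 128 and 99.0 in vehicle-treated mice and 43.5, 49.6, 40.0, 90.3 and 58.2 in semaglutide-treated mice. Combination-treated mice had 81.4, 106 and 64.9. Semaglutide-treated mice 13, 14, 15 and 17 were below every vehicle-treated mouse and mouse 16 was inside the vehicle range. Mouse 16 also had summed adipocyte markers of 15005 normalized counts, against 1696 to 3248 in the rest of its group, and summed macrophage and leukocyte markers of 1292, against 341 to 623, whose part in its values was not tested. The means were 90.3 ± 24.2, 56.3 ± 20.2 and 84.2 ± 20.8 (SD, n = 5, 5 and 3). The log2 difference of semaglutide against vehicle was -0.70 (SE 0.23), that of the combination against semaglutide 0.61 (SE 0.27) and that of the combination against vehicle -0.09 (SE 0.27). The first passed limma's threshold in the fit described but in only 9 of 22 alternative fits. An antisense gene, Gm47040, which was not in the table, overlaps the 5′ end of Fst on the opposite strand.

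Fstl1 (ENSMUSG00000022816), at chr16:37776873-37836514 on the plus strand, encodes a secreted glycoprotein related to follistatin that fibroblast-like cells as well as muscle produce. Vehicle-treated mice had 523, 805, 595, 731 and 816 normalized counts, semaglutide-treated mice 487, 345, 267, 368 and 349, and combination-treated mice 600.0, 801 and 613. Each semaglutide-treated mouse was below each mouse of the other groups, although mouse 13 came within a short distance of vehicle-treated mouse 1. Means were 694 ± 130, 363 ± 79.6 and 671 ± 112 (SD, n = 5, 5 and 3). The log2 difference was -0.94 (SE 0.16) for semaglutide against vehicle and 0.90 (SE 0.19) for the combination against semaglutide, compared with -0.04 (SE 0.19) for the combination against vehicle. The fibroblast markers moved with it. With semaglutide against vehicle 7 of 7 were called lower, where 13.9% of all genes were, and their median log2 difference was -1.54. With the combination against semaglutide 6 of 7 were called higher, where 10% of all genes were, and their median was 1.55. Tendon cell markers (Tnmd, Scx, Kera, Fmod and Comp) moved as well, with medians of the summed normalized counts of 4105, 502 and 2842 in the 3 groups. Of these 5, 4 were called lower with semaglutide than with vehicle, where 13.9% of all genes were. With the combination against semaglutide 3 were called higher and 1 lower, where 10% and 10.7% of all genes were. Vehicle-treated mouse 1, which had the lowest Fstl1 of its group, also had the lowest summed fibroblast markers, at 3210, and tendon markers, at 581. The part of either list in the Fstl1 values was not tested.

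Il15 (ENSMUSG00000031712), at chr8:82331632-82403222 on the minus strand, encodes interleukin-15, a cytokine that supports natural killer and memory T cells and is also made by muscle fibres. Vehicle-treated mice had 109, 42.1, 80.4, 144 and 99.0 normalized counts, and semaglutide-treated mice 34.8, 45.1, 66.6, 53.4 and 35.8. Combination-treated mice had 95.9, 112 and 198. Vehicle-treated mouse 2 was within the semaglutide range, and all 3 combination-treated mice were above it. The means were 94.9 ± 37.5, 47.2 ± 13.3 and 136 ± 55.0 (SD, n = 5, 5 and 3). The log2 difference was -0.93 (SE 0.30) for semaglutide against vehicle, 1.47 (SE 0.35) for the combination against semaglutide and 0.54 (SE 0.35) for the combination against vehicle. The first was past the threshold in 12 of 22 alternative fits and the second in 21 of 22, and leaving out combination-treated mouse 22, the highest of all, took it to 1.16 and out of the calls.

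Metrnl (ENSMUSG00000039208), at chr11:121701544-121716306 on the plus strand, encodes meteorin-like protein, a secreted factor that acts on macrophages, adipose tissue and muscle progenitors. It had 43.5, 37.3, 26.0, 47.7 and 66.4 normalized counts with vehicle, 56.1, 55.2, 34.4, 42.7 and 32.8 with semaglutide and 40.1, 47.1 and 50.5 with the combination. The groups lay on top of each other, at means of 44.2 ± 14.9, 44.3 ± 11.1 and 45.9 ± 5.30 (SD, n = 5, 5 and 3). Its log2 differences were 0.03 (SE 0.24), 0.08 (SE 0.27) and 0.11 (SE 0.27) for semaglutide against vehicle, the combination against semaglutide and the combination against vehicle, and the sign of each changed with the mouse left out.

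Apln (ENSMUSG00000037010), at chrX:48025146-48034853 on the minus strand, encodes apelin, the ligand of the receptor Aplnr. Its depth was low, at 1 to 17 reads per library. Vehicle-treated mice had 1.14, 7.22, 6.19, 6.65 and 16.3 normalized counts, semaglutide-treated mice 5.80, 1.13, 6.66, 0.971 and 6.71, and combination-treated mice 3.64, 20.5 and 13.2. The groups overlapped, and 3 mice had 1 read each. Means were 7.50 ± 5.49, 4.26 ± 2.95 and 12.5 ± 8.47 (SD, n = 5, 5 and 3). In a fit with no minimum level the log2 differences were -0.66 (SE 0.61), 1.35 (SE 0.70) and 0.68 (SE 0.70), in the same order of comparisons as for Metrnl, so that no difference was detectable at this depth.

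**Figure D2:**
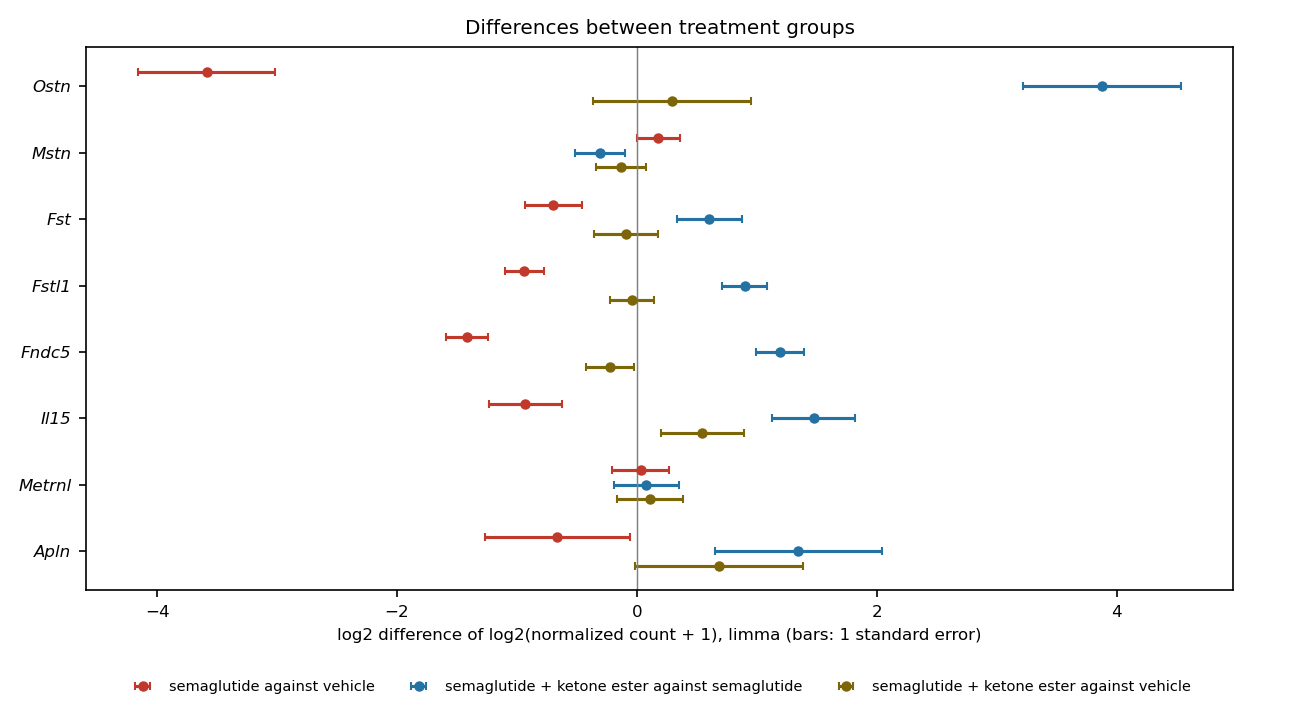
Differences in log2(normalized count + 1) (horizontal axis) between treatment groups for the 8 genes, from limma with all 3 groups in a single fit, with 1 standard error as whiskers. Ostn lay at -3.59 for semaglutide against vehicle and 3.88 for the combination against semaglutide, Mstn and Metrnl lay near 0 in all comparisons, and Apln is from a fit with no minimum level.

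Across the genes that entered the fit, 5 of 7 were past the threshold and lower with semaglutide than with vehicle, where 13.9% of the 12303 genes fitted were called lower and 26.5% were called in either direction. For the combination against semaglutide 4 of 7 (Ostn, Fstl1, Fndc5 and Il15) were called higher, where 10% of all genes were called higher and 20.7% in either direction. For the combination against vehicle limma called 0 of 7, where 0.366% of all genes were called, and 0 of 7 had an unadjusted p under 0.05 by limma, edgeR or DESeq2. The medians of the 7 log2 differences were -0.93, 0.90 and -0.04, and those of all genes fitted were -0.0029, -0.00024 and -0.0059. These counts follow from the choice of the genes. The first 2 comparisons share the semaglutide-treated mice, and the comparisons with vehicle share the vehicle-treated mice.

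Semaglutide-treated and vehicle-treated mice did not overlap for 3 of 7 genes (Ostn, Fstl1 and Fndc5), each lower with semaglutide, where 7.45% of all genes fitted were lower without overlap and 14.7% did not overlap in either direction. The combination-treated mice were above all semaglutide-treated mice for 4 of 7 (these 3 and Il15), where 9.96% of all genes were and 20.1% did not overlap in either direction. For 0 of 7 did the combination and vehicle groups stand apart, where 11.3% of all genes did. With equal totals the calls for semaglutide against vehicle were 3 lower and 0 higher, and those for the combination against semaglutide 4 higher and 1 lower, the last being Mstn.

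The genes whose profile over the 13 mice was most like that of Ostn were Dupd1, Ociad2, Phpt1, Stac3 and Cpe. Likeness was the mean absolute difference between z scores of log2(normalized count + 1), which was 0.130, 0.134, 0.135, 0.140 and 0.159 for these 5, where its median over all genes was 1.08. Dupd1, a dual-specificity phosphatase of muscle, had means of 503 normalized counts with vehicle, 61.2 with semaglutide and 476 with the combination. Stac3, a component of the excitation-contraction coupling machinery, had means of 3699, 1994 and 3943, and Cpe, a carboxypeptidase that trims prohormones, means of 4532, 2247 and 4920.4. These 5 were chosen for likeness over all 13 mice, mouse 13 included, so a pattern shared with Ostn follows from the choice. That holds also for mouse 13, which was the highest of the semaglutide group in each of the 5, as for Ostn. The genes nearest to Mstn were further from it, at 0.397 for Rps27l, 0.418 for Mr1, 0.438 for Hdac3, 0.441 for Zfp647 and 0.443 for Stag2.

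**Figure D3:**
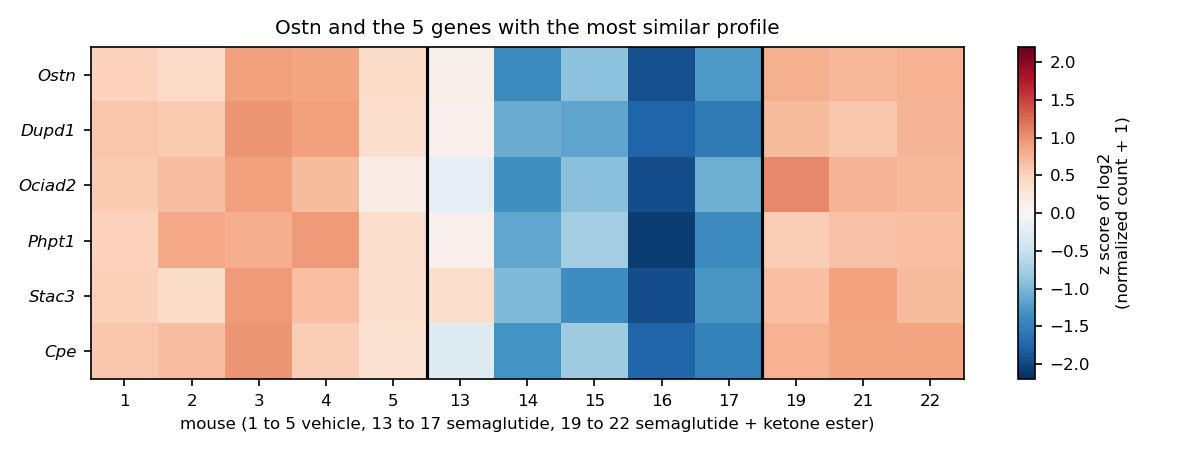
Heat map of z scores of log2(normalized count + 1), standardized per gene over 13 mice (columns), for Ostn and the 5 genes with the nearest profile (rows), with red above and blue below the mean and black lines between treatment groups. In the semaglutide group mouse 13 lies near 0, with an Ostn z score of 0.13, and mouse 16 is lowest, at -1.93.

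Myostatin acts through a cascade of ligands, binding proteins, proteases, receptors and SMAD transducers, and 40 of 44 listed members of that cascade other than Mstn and Fst entered the fit. With semaglutide against vehicle 8 were called higher and 7 lower (37.5% against 26.5% of all genes, limma with Benjamini-Hochberg adjustment). Their median log2 difference was -0.01. With the combination against semaglutide 3 were called higher and 6 lower (22.5% against 20.7% of all genes). The plot of pathway genes shows no common direction.

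Of 9 receptors, 4 were called higher with semaglutide and 1 lower (55.6% against 26.5% of all genes). Of all genes, 12.5% were called higher and 13.9% lower. Acvr2b, the activin type II receptor with the strongest affinity for myostatin, rose from 86.7 ± 23.4 to 149 ± 14.7 normalized counts (log2 difference 0.81, SE 0.17, limma adjusted p = 0.0036), and Acvr2a rose from 654 ± 135 to 1066 ± 204 (0.71, SE 0.16, limma adjusted p = 0.0062). Tgfbr1 and Tgfbr2 were the other two that rose, by 0.49 and 0.52 on the log2 scale, and Bmpr2 fell by 0.35, a call that was lost with equal totals. The type I receptor Acvr1b had means of 953 ± 166 and 1150.4 ± 317, with a log2 difference of 0.25 (SE 0.17) that did not pass. With the combination Acvr2a was lower again than with semaglutide, at 611 ± 89.8 (-0.79, SE 0.19, limma adjusted p = 0.0098), and so was Tgfbr1 (-0.57, SE 0.16, limma adjusted p = 0.020), whereas Acvr2b stood at 183 ± 14.7. Acvr2b was the single gene of this cascade that limma called between the combination and vehicle (1.11, SE 0.20, limma adjusted p = 0.023). It was lost in 4 of 23 alternative fits, those without vehicle-treated mouse 3 or without any 1 of the combination-treated mice. In this comparison 4 of the 40 cascade genes had an unadjusted p under 0.05 by limma. Of the 40, edgeR called 1 and DESeq2 called 2.

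Among the ligands Gdf11, the closest relative of Mstn, had 410 ± 87.7, 200.1 ± 192 and 405 ± 64.5 normalized counts. Semaglutide-treated mouse 13 had 523, above every vehicle-treated mouse, and the other 4 averaged 119 ± 75.2 (SD, n = 4). Gdf11 was called lower with semaglutide (-1.48, SE 0.45, limma adjusted p = 0.025) in the main fit and in 16 of 23 alternatives. Mstn differed by 0.18 in the same comparison. Inhba, which encodes an activin subunit, had means of 17.9 ± 3.46 and 10.6 ± 4.21 and did not pass (limma adjusted p = 0.067). Of the binding proteins Wfikkn2, an inhibitor of myostatin and Gdf11, rose with semaglutide by 0.58 (SE 0.12, limma adjusted p = 0.0041), and Fstl3 did not pass, at 34.2 ± 7.99 and 39.8 ± 16.2.

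The proteases that cut the myostatin precursor did not share a direction. Furin rose with semaglutide from 1052 ± 96.0 to 1409 ± 169 normalized counts and stood at 951 ± 68.3 with the combination. Bmp1, which releases myostatin from its propeptide, fell from 333 ± 45.9 to 183 ± 47.8 and stood at 304 ± 53.1, and Pcsk6 fell from 370.4 ± 102 to 194 ± 33.2 and stood at 366 ± 70.9. For each of these the combination also differed from semaglutide in the opposite direction to semaglutide from vehicle, by -0.56 for Furin (limma adjusted p = 0.0035), 0.75 for Bmp1 (0.014) and 0.91 for Pcsk6 (0.0097).

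Of the transducers, the receptor-activated Smad2 and Smad3 fell with semaglutide, by 0.53 and 1.09 on the log2 scale (limma adjusted p = 0.0018 and 0.0095), while their shared partner Smad4 rose by 0.42 (limma adjusted p = 0.0037). Against semaglutide, the combination had higher Smad2 (252 ± 17.5 against 180.4 ± 22.5 normalized counts, limma adjusted p = 0.0093) and lower Smad4 (853 ± 87.6 against 1249 ± 38.6, limma adjusted p = 0.0023). Smad3 was not called in that comparison, with means of 2590.0 ± 390 for vehicle, 1339 ± 674 for semaglutide and 1367 ± 76.3 for the combination. For Smad3 the highest semaglutide-treated mouse, at 2414, was within the vehicle range of 2019 to 2913.

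**Figure D4:**
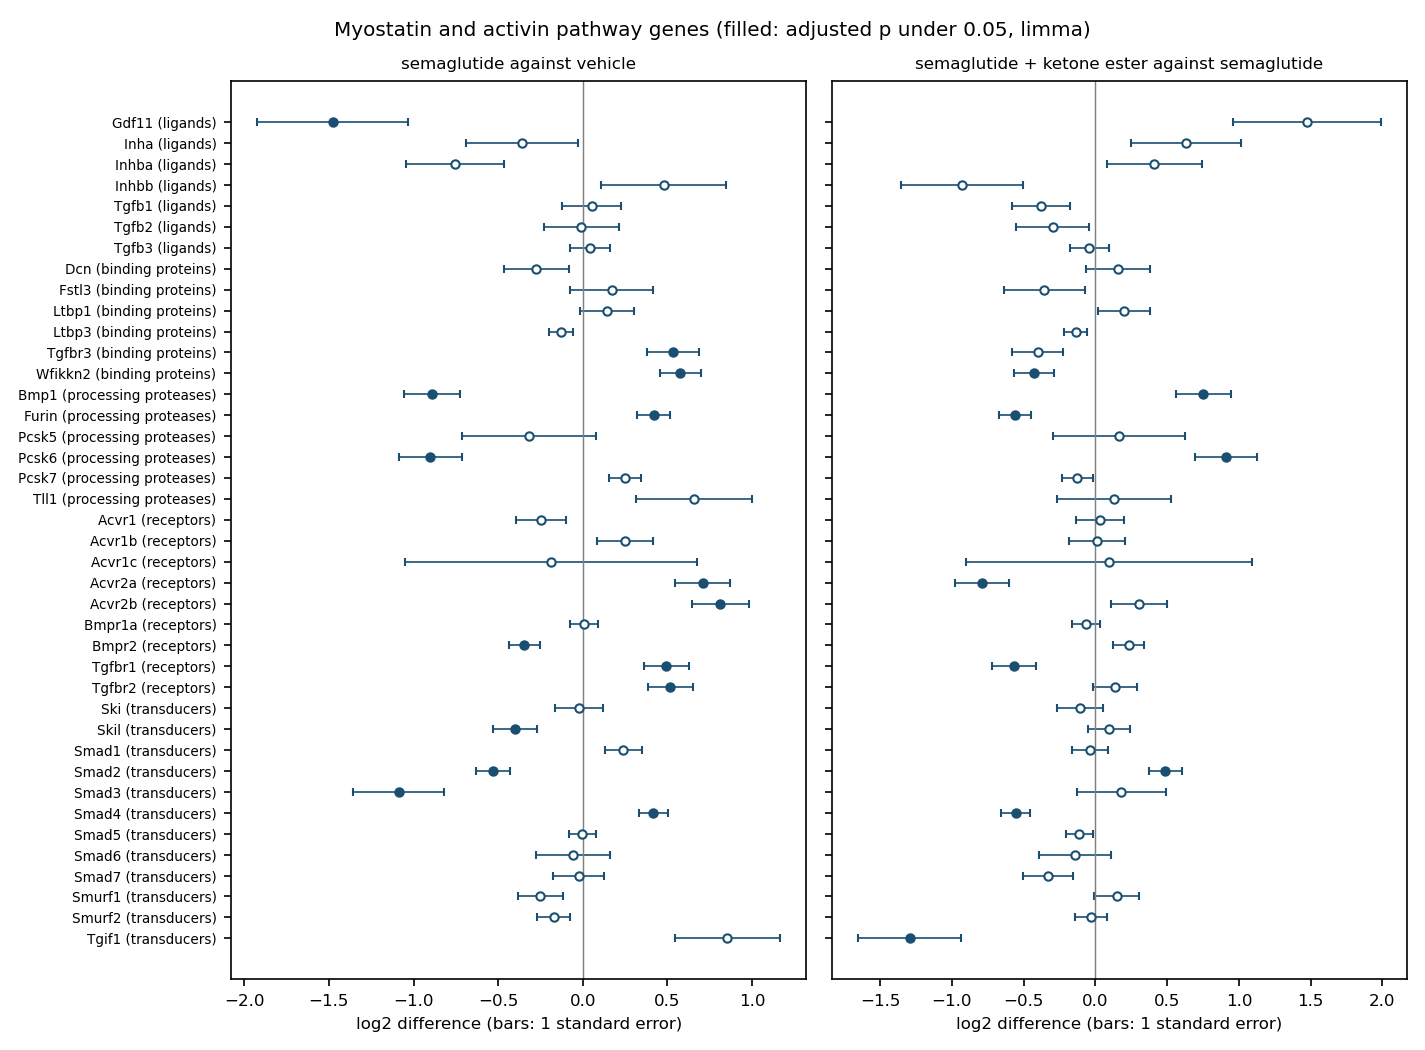
Log2 differences (horizontal axes, whiskers 1 standard error) for genes of the myostatin and activin cascade, grouped by role, for semaglutide against vehicle (left) and the combination against semaglutide (right). Filled points have a limma adjusted p under 0.05, and they lie on both sides of 0 in each panel, with Acvr2a at 0.71 on the left and -0.79 on the right.

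Receptors and partners of the other factors were measured for 18 of 27 listed genes. With semaglutide against vehicle 1 was called higher and 3 lower (22.2% against 26.5% of all genes), and with the combination against semaglutide 4 were higher and 1 lower (27.8% against 20.7%), shares near those of all genes. With the combination against vehicle limma called 0 of 18, with 2 of 18 at an unadjusted p under 0.05, and edgeR and DESeq2 also called 0. The musclin receptor Npr3, which clears natriuretic peptides, had means of 210.1 ± 102, 252 ± 91.1 and 129.8 ± 44.3 normalized counts, and neither difference passed (limma adjusted p = 0.52 and 0.099). The signalling receptors Npr2, at 868 ± 33.0, 789 ± 71.3 and 882 ± 54.9, and Npr1, at 287 ± 32.6, 313 ± 43.1 and 293 ± 37.0, did not pass in either. Prkg1, the cyclic GMP-dependent kinase downstream of them, was higher with the combination than with semaglutide by 0.97 (SE 0.22, limma adjusted p = 0.0088).

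Aplnr, the apelin receptor, fell from 109 ± 17.4 normalized counts with vehicle to 44.2 ± 21.3 with semaglutide (-1.37, SE 0.22, limma adjusted p = 0.00072) and stood at 128 ± 5.15 with the combination (1.61 above semaglutide, SE 0.26, limma adjusted p = 0.0011). It was called in 22 of 22 alternative fits of each comparison. Its ligand gene Apln was near the detection limit in the same libraries. Summed endothelial markers, Aplnr being expressed in endothelium, were 3754 to 4629, 3663 to 4257 and 3980 to 4740 in the 3 groups. Between semaglutide and vehicle limma called 0 of 6, where 26.5% of all genes were called, with 1 of 6 at an unadjusted p under 0.05. In that comparison edgeR and DESeq2 also called 0 of 6. Of the 6, limma called 3 higher with the combination than with semaglutide, where 10% of all genes were called higher. The part of these markers in the Aplnr values was not tested.

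For irisin, the integrin subunit Itgav fell by 0.54 with semaglutide (SE 0.12, limma adjusted p = 0.0052) and was higher by 0.49 with the combination than with semaglutide (SE 0.14, limma adjusted p = 0.023), while Itgb5 had means of 1394 ± 103 and 1357 ± 333 and did not pass. For interleukin-15 the receptor subunit Il15ra had means of 263 ± 43.0, 309 ± 82.8 and 239 ± 18.3 and did not pass, and the transducer Stat5b rose by 0.56 with semaglutide (SE 0.14, limma adjusted p = 0.012) and was lower with the combination than with semaglutide (-0.88, SE 0.17, limma adjusted p = 0.0028). For meteorin-like protein, the receptor Kit was at 19.9 ± 3.64, 18.5 ± 10.1 and 18.1 ± 13.4, and the related gene Metrn fell by 1.01 with semaglutide (limma adjusted p = 0.0055) and was 1.48 higher on the log2 scale with the combination than with semaglutide (limma adjusted p = 0.0019). Metrnl itself differed by 0.03 and 0.08 in these comparisons. Dip2a, a receptor proposed for Fstl1, was at 135 ± 12.4, 125 ± 33.5 and 135 ± 15.9.

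Other factors that muscle secretes were measured for 19 of 29 listed genes, and 6 were called lower and 1 higher with semaglutide against vehicle (36.8%, where 26.5% of all genes were called in either direction and 13.9% lower). With the combination against semaglutide 6 were called higher and 0 lower (31.6%, where 20.7% of all genes were called in either direction and 10% higher). Sparc, a matrix protein that fibroblasts also make, fell from 2929 ± 405 to 1587 ± 68.1 normalized counts (-0.87, SE 0.11, limma adjusted p = 0.00011). Vegfb, a growth factor, fell by 0.62 (SE 0.10, limma adjusted p = 0.00064), the chemokine gene Cxcl12 by 0.57 (SE 0.10, limma adjusted p = 0.00094) and Ctf1, which encodes cardiotrophin-1, by 0.68 (SE 0.13, limma adjusted p = 0.0020). Gdnf, a neurotrophic factor, was the exception, at 4.90 ± 3.02 with vehicle, 27.3 ± 11.0 with semaglutide and 7.65 ± 1.36 with the combination (2.32, SE 0.48, limma adjusted p = 0.0034 for the first). All 4 of these that fell were higher with the combination than with semaglutide, by 0.57 to 0.66. Igf1 had means of 218 ± 88.8, 250.4 ± 147 and 422 ± 141 and did not pass. Il6, Gdf15 and Fgf21 were below the minimum level, and their highest single values were 3.33, 8.74 and 1.24 normalized counts. For the combination against vehicle limma called 0 of 19, with 4 of 19 at an unadjusted p under 0.05, and DESeq2 called 1.

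All 15 listed regulators of transcription that are known to act on these genes entered the fit, and with semaglutide against vehicle 1 was called higher and 4 lower (33.3% against 26.5% of all genes). Myod1, the myogenic factor that binds E-boxes, rose from 179.9 ± 36.1 to 568 ± 219.5 normalized counts (1.61, SE 0.23, limma adjusted p = 0.00031) and stood at 309 ± 95.0 with the combination. Satellite cell markers (Pax7, Calcr, Chodl, Myf5 and Cdh15) summed to 559 to 687 normalized counts with vehicle, 692 to 1322 with semaglutide and 546 to 605 with the combination. The list did not rise as a whole. Of the 4 that entered the fit, 1 was called higher with semaglutide than with vehicle (25% against 26.5% of all genes), and their median log2 difference was -0.10. With the combination against semaglutide 1 was called lower, and the median was 0.07. The part of these markers in the Myod1 values was not tested. Nr3c1, the glucocorticoid receptor, fell by 0.74 (SE 0.14), the estrogen-related receptor Esrra by 0.78 (SE 0.16) and Mef2c by 0.90 (SE 0.20). For Mef2c the highest semaglutide-treated mouse, at 13926 normalized counts, was within the vehicle range of 12905 to 14167. Foxo1, a forkhead factor known to act on Ostn and on atrophy genes, had 1742 ± 725 normalized counts with vehicle, 814 ± 195 with semaglutide and 389 ± 142 with the combination, and it was called in every comparison (-1.03, -1.09 and -2.12, limma adjusted p = 0.0092, 0.019 and 0.0099). Leaving out combination-treated mouse 21 or 22 took the last 2 of these out of the calls. With the combination against semaglutide 6 of 15 were called (40% against 20.7% of all genes). Esrra and Mef2c were called higher, by 0.72 and 0.85, and besides Foxo1 the genes Foxo3 (-0.53), Myod1 (-0.85) and Klf15 (944 ± 337 against 445 ± 115 normalized counts) were called lower, the last of them in 9 of 23 alternative fits. Ppargc1a, the coactivator linked to Fndc5, had means of 2342 ± 726, 1972 ± 916 and 966 ± 225 and did not pass in any comparison. Its combination-treated mice, at 710 to 1133, were all below the vehicle-treated mice, at 1501 to 3108, where 11.3% of all genes did not overlap. For the combination against vehicle limma called 1 of 15, with 5 of 15 at an unadjusted p under 0.05. In that comparison edgeR and DESeq2 also called 1.

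Over the 4 lists together, 92 of 115 genes entered the fit. With semaglutide against vehicle 11 were called higher and 20 lower (33.7%, median log2 difference -0.02), and with equal totals the split was 16 and 16. With the combination against semaglutide 15 were higher and 11 lower (28.3%), and with equal totals 9 and 26. With the combination against vehicle limma called 2 (2.17%, where 0.366% of all genes were called), Acvr2b and Foxo1.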

How the data were processed

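Stranded mRNA libraries of gastrocnemius from 13 mice (5 vehicle, 5 semaglutide, 3 semaglutide + ketone ester) were sequenced, and all carry 1 batch label. The authors deposited a table of normalized counts, a signal with 1 column per mouse, and the submitters' processing notes name DRAGEN, DESeq2 and mm10. The annotation and the strand setting of the counting are not given in the sources used here. Each column held whole multiples of a single value, so reads were recovered as whole numbers (100.0% of values, tolerance 0.02 reads), and these recovered reads gave the depths. They were 15621189 to 17101549 in vehicle-treated, 15319471 to 23498162 in semaglutide-treated and 16149274 to 17175998 in combination-treated mice, and 3 reads correspond to 2.24 to 3.71 normalized counts.

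The main fit was limma 3.58.1 (R 4.3.3) with a mean-variance trend on log2(normalized count + 1), with the 3 groups in 1 fit, for the 12303 genes with a mean of at least 10 normalized counts. Benjamini-Hochberg adjustment ran over all of them, with a threshold of 0.05 on adjusted p. Alternatives were edgeR 4.0.16 and DESeq2 1.42.0 on recovered reads, with other pseudocounts, filters, scalings and sample weights, fits of 2 groups only and leaving out each mouse. The fit was tested on simulated data. A log2 difference understates the change of low genes because of the pseudocount. A limma p-value sets a difference between groups against the spread between mice within groups, estimated over the 3 groups and moderated across genes.

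Positions and exon lengths are from GENCODE M21 on GRCm38. The members, pathway lists, markers and named genes were chosen with earlier results of these data known. The text names the members, a set list of receptors and partners and, per list, comparison and direction, up to 4 called genes with the smallest adjusted p. Tgfbr2 and Bmpr2 were named after their values were seen, to complete a count. Likeness to Ostn or Mstn used z scores over the 13 mice. Of 115 pathway genes 114 were in the table.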

Additional observations from a re-analysis of the deposited data

Results flagged for a closer look

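In 59 pairs of a gene and a group of 5 mice, over 30 genes, 4 had a single mouse far from the others by Dixon's gap ratio. That share is near the 1 in 20 that chance gives for normally distributed values, so the number flagged shows no excess. The ratio was taken on normalized counts, for which the rate may differ. Ostn in semaglutide-treated mouse 13 was 1047 normalized counts, with the other 4 mice of that group at 50.5 to 229.9. Aplnr was also set apart in mouse 13, at 82.2 normalized counts against 32.1 to 36.7 in the other 4. Fstl3, a binding protein of myostatin and activins, was 68.0 in semaglutide-treated mouse 16 against 30.0 to 39.4 in the others. Fgf21 was 1.24 in vehicle-treated mouse 3, which is 1 read, and 0 in the other 4, values that always give a ratio of 1.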

How the results depend on the processing

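Every one of the 474 log2 differences of single members under the alternatives stayed within the spread between mice of its value in the main fit, and no called difference changed sign. Ostn, Fndc5 and Fstl1 were called in 23 of 23 alternatives, both for semaglutide against vehicle and for the combination against semaglutide. Over them Ostn ranged from -4.22 to -2.85 in the first comparison and from 3.08 to 4.51 in the second.

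The count of members called between semaglutide and vehicle was 5 and became 3 with no filter, with equal totals and with a mean of at least 100, a filter that removed Fst and Il15. It was 3 to 5 when a mouse was left out, and 3 without vehicle-treated mouse 3, 4 or 5 or semaglutide-treated mouse 14 or 17. It was 3 to 5 for the combination against semaglutide and 0 in each such fit for the combination against vehicle. The pathway count became 15 for the combination against semaglutide with 2 groups only, and 4, 6 and 7 against vehicle by DESeq2, with sample weights and with 2 groups only. Leaving out a mouse gave 26 to 37 pathway genes for semaglutide against vehicle, 11 to 35 for the combination against semaglutide (14 without mouse 21, 11 without mouse 22) and 0 to 3 against vehicle (1 without vehicle-treated mouse 3 or combination-treated mouse 19, 0 without mouse 21 or 22).

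Over all genes, 4986 were called for semaglutide against vehicle with sample weights, where the main fit called 3255. For the combination against semaglutide 2546 became 4352 with equal totals, 4436 with sample weights and 1208 with 2 groups only. Against vehicle 45 became 172 by DESeq2, 318 with sample weights and 268 with 2 groups only. With a mouse left out these counts were 2376 to 4611, 1148 to 4119 and 4 to 132. The largest changes came without semaglutide-treated mouse 13 (4119 and 132) and without combination-treated mouse 22 (1148 and 4). With equal totals the split of higher and lower calls was 3351 and 985, 637 and 3715, and 11 and 51, where the main fit gave 1540 and 1715, 1234 and 1312, and 12 and 33, and the median of all genes moved by 0.17, -0.24 and -0.07 on the log2 scale. The cause of these changes was not tested. No paired analysis was possible because mouse numbers were not shared between groups. Depth limited Apln, with 1 to 17 reads, and the 3 combination-treated mice limited each comparison with that group.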
